A study of Mus musculus with 4 samples.

Results

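The response to metformin was examined in the gastric corpus of mice whose parietal cells lack the AMP-activated protein kinase (AMPK). It is the difference between 2 of the study's 4 arrays, taken by their titles: the array of AMPK-knockout (KO) corpus after metformin minus the array of KO corpus after vehicle. The comparison was meant to find targets of the drug in parietal cell progenitors and in cells other than parietal cells, since the submitters describe parietal cells in these mice as reduced in number and maturity. The other 2 arrays are wild-type (WT) corpus after the same treatments and serve here as a frame for the KO values.

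KO mice carried Atp4b-cre with homozygous floxed alleles of Prkaa1 and Prkaa2, the genes of both catalytic subunits of AMPK. The Cre is driven in parietal cells, so every other cell of the corpus keeps its AMPK. Their background was mixed (an Atp4b-cre line on B6/FVB crossed with floxed lines on B6), whereas WT mice were C57BL/6. Genotype and strain background therefore cannot be told apart. A mixed background can also differ between the animals of the KO metformin and KO vehicle arrays, which was not tested. All mice, KO and WT, were adults of 8 to 10 weeks, given an intraperitoneal injection each day for 14 days, either metformin at 300 mg/kg or saline. Littermates served as controls only where possible, and the number of animals behind an array was not stated. With 1 array per group there is no replicate error for any value below, no test is possible, and the differences are sizes for these arrays only.

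AMPK is the cell's energy sensor: it is switched on when ATP is low, slows the building of lipid and protein, and favours fuel burning. Metformin, a diabetes drug, inhibits complex I of the mitochondrial respiratory chain and so can activate AMPK, but it also acts in cells without the kinase. The corpus holds acid-secreting parietal cells, which are packed with mitochondria, along with chief cells, which secrete pepsinogen, mucous cells of the gland neck and pit cells of the surface. In the mouse it borders the forestomach, which is lined by cornified squamous epithelium like that of skin, so a piece of corpus can carry some of that lining.

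Values are log2 expression values, so that a difference of 1 is a 2-fold change, and a gene is said to rise or fall only where the difference reached 1. Genes were kept if their mean over the 4 arrays reached 5.03, the median of all 22180 measured genes, which left 11090. Where a KO value lies under 5.03, levels are given without a fold. The 2 KO arrays correlated at r = 0.95 across genes, which are not independent replicates. Prkaa1 read 8.18 with vehicle and 8.66 with metformin in KO, against 9.46 and 8.90 in WT, and Prkaa2 read 7.19 and 7.52 against 8.90 and 8.02. Both targeted genes were thus lower on each KO array than on the WT array of the same treatment, and neither differed by 2-fold between the KO arrays. Where their probes lie relative to the deleted exons was not looked up, so these values are only a partial check of the labels. The Y-linked gene Eif2s3y lay between 7.38 and 7.82 on the 4 arrays and Xist between 2.77 and 3.47.

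In KO corpus 271 genes rose with metformin (2.44% of those kept) and 68 fell (0.613%). The genes that rose were protein-coding in 254 cases, and their leaders came from cornified squamous epithelium, from hormone signalling (Glp1r) and from fatty acid elongation (Elovl6). Of those that fell, 40 were protein-coding, led by antiviral genes such as Ifit1bl1 and by small subunits of the respiratory chain such as Ndufa1, and 19 were small nucleolar RNA genes. Between the WT arrays 86 genes were higher with metformin by 2-fold or more (0.775%) and 103 were lower (0.929%). The median difference over all kept genes was 0.11 in KO and -0.14 in WT, and every list below is to be read against these 2 medians. By another scaling of the arrays the median in KO was 0.03 (cyclic loess) or 0.19 (each array centred on its median), and the share of the changed genes that rose was 67.5% or 89.8%, against 79.9% as deposited.

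**Figure D1:**
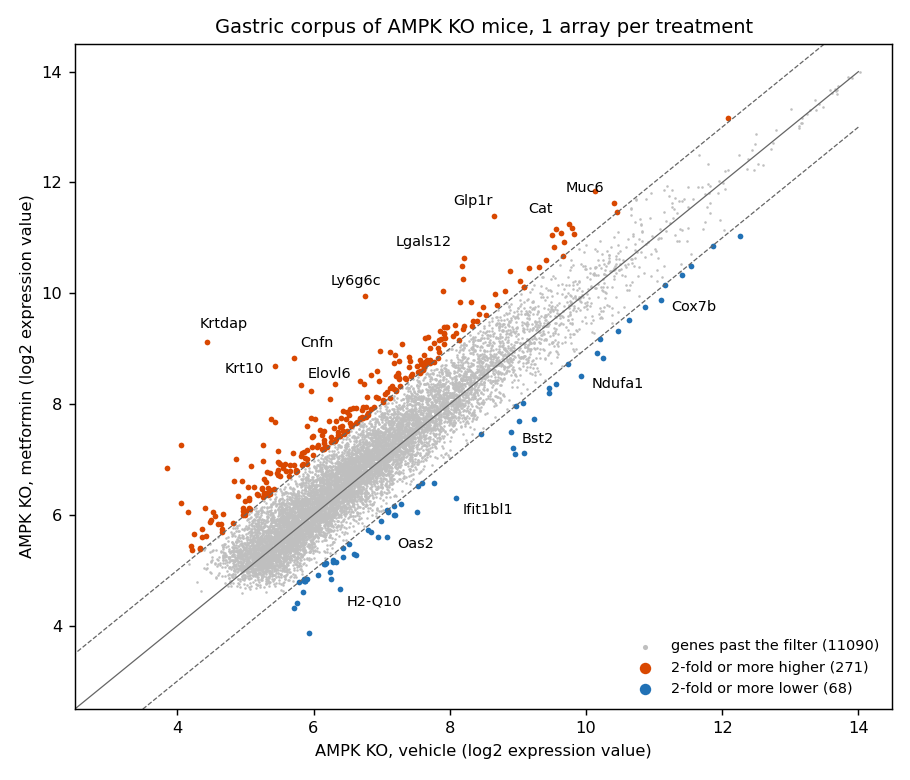
Log2 expression value in KO corpus with metformin (vertical axis) against vehicle (horizontal axis), 1 point per gene for 11090 genes. Dashed lines mark a 2-fold difference; 271 genes in orange lie on or above the upper line, with Krtdap, Krt10, Ly6g6c and Cnfn farthest from it among the labelled genes, and 68 in blue lie on or below the lower line.

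Among the leaders, the squamous genes Krtdap, Krt10 and Cnfn were high on the KO metformin array and low on all 3 others. Krt10, a keratin of the layers above the basal one, read 4.66 with vehicle and 5.28 with metformin in WT, then 5.44 and 8.69 in KO, a rise of 3.25 or 9.50-fold. Cnfn, a component of the cornified envelope, read 4.71 and 5.18 in WT and 5.71 and 8.83 in KO, a rise of 3.12. Krtdap, which is made in differentiating keratinocytes, read 3.92, 4.51, 4.43 and 9.13 in the same order, and 3 of these values lie under the filter value. For these 3 genes the KO metformin array was the only one of the 4 above 6, and the other arrays lay within 1.1 of each other.

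The same held for weaker squamous genes, of which Krt13 and Dmkn were kept among the 11090 and the others in this paragraph and the next were not. The suprabasal keratin Krt1 read 3.92 and 4.06 in WT and 4.08 and 7.21 in KO. For Krt4, a keratin of mucosal squamous lining such as oesophagus and forestomach, the values were 3.83, 3.71, 3.70 and 7.26. Its partner Krt13 read 3.96, 4.66, 4.95 and 6.62. Dermokine (Dmkn), a secreted keratinocyte protein, read 4.86 and 7.01 in KO. The skin-type Krt1 and the mucosal Krt4 and Krt13 were therefore raised on this array above the other 3, at levels that give no fold. Not all keratins were. Of 8 mucosal keratins measured, 6 were highest on this array, but only 2 differed by 1 or more between the KO arrays. In KO, Krt76 read 3.85 and 3.42, Krt84 3.98 and 3.37 and the skin keratin Krt2 3.65 and 3.67.

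Proteins of the cornified envelope and of its shedding followed. Repetin (Rptn), an envelope precursor, read 3.71 with vehicle and 6.32 with metformin in KO, and Sprr3, another, read 2.74 and 5.42. The protease Asprv1, which processes filaggrin, read 3.68 and 6.14, and filaggrin itself (Flg) read 3.82 and 5.11. Spink5, an inhibitor of the shedding proteases, read 4.60 and 6.28, and the desmosomal cadherin Dsc1 read 2.61 and 5.25. The lipid-barrier enzyme Alox12b read 3.80 and 5.35, corneodesmosin (Cdsn) 3.70 and 4.82, and hornerin (Hrnr) 2.97 and 4.02. All of these were highest on the KO metformin array, and Cdsn and Hrnr remained under the filter value even there.

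In all, 68 genes of 3 squamous lists were measured, and 48 of them had their highest value on the KO metformin array, against 19.6% of all genes measured. On that array 17 stood at least 2-fold above each of the other 3, and 13 were above the filter value there and under it everywhere else. Of the 23 squamous genes that were kept, 7 rose and none fell, but a gene that is kept only through its value on the KO metformin array had to differ, so this count is a description. The single squamous gene at least 2-fold lower was Lce3a, from 4.22 to 3.16, both under the filter value. The median over all 68 was 0.49 in KO and 0.24 in WT.

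The 3 lists did not behave alike. The 48 genes of the cornified layers had a mean value of 4.28 with vehicle and 4.54 with metformin in WT and of 4.62 and 5.61 in KO, and 36 were highest in treated KO corpus. The 8 mucosal keratins had means of 3.44, 3.61, 3.79 and 4.51. For the 12 genes of the basal layer the means were 4.91, 5.18, 5.25 and 5.48, a smaller step. Among basal markers Krt14 read 4.46 with vehicle and 4.29 with metformin in KO, Krt15 read 4.52 and 3.87, and Trp63, the master regulator of squamous fate, read 3.38 and 3.60. All 3 were under the filter value on every array. Only Dsg3, a desmosomal cadherin of the lower layers, was higher by over 1 among the basal markers, from 3.16 to 4.86. Krt5 was not analysed here.

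Other kept squamous genes were measured at similar levels on several arrays, and all but Sbsn, Tgm1, Evpl and Lce3c of those named here were above the filter value on all 4. Sprr1a, a small proline-rich envelope precursor, read 9.79 and 10.04 in WT and 9.53 and 10.83 in KO, a rise of 1.31. Ly6g6c, a surface protein of the Ly6 family, read 8.71 and 8.68 in WT and 6.76 and 9.94 in KO, so that its rise of 3.19 combined the lowest value under vehicle with the highest under metformin. In contrast, Ly6d read 8.05 and 7.99 in KO, the glutathione transferase Gsta4 12.36 and 12.25, the kallikrein Klk7 5.78 and 5.68, envoplakin (Evpl) 5.35 and 5.21 and the integrin Itga6 8.95 and 8.93. Between these lay Lypd3 (0.61), Itgb4 (0.60), Krt80 (0.54), Sbsn (0.53), Lce3c (0.47), Dsc2 (0.38), Krt78 and Perp (0.34 each), Tgm1 (0.31), periplakin (Ppl, 0.29) and Lama3 (0.16). None of 10 measured hair and fur genes was kept, and of 15 genes of skeletal muscle, which surrounds the oesophagus, 4 were kept with a median of 0.18. How much squamous tissue each piece held was not measured, and its part in the other differences described here was not tested.

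**Figure D2:**
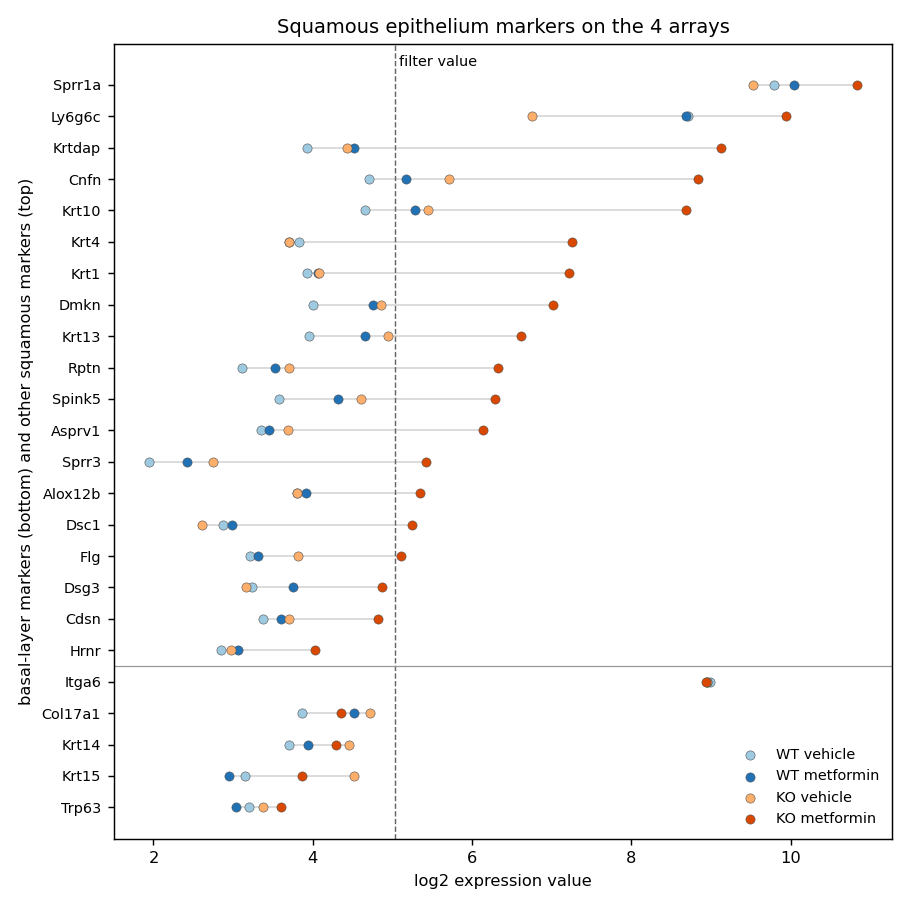
Log2 expression value (horizontal axis) of the squamous genes that were at least 1 higher on the KO metformin array than on the KO vehicle array or on every other array (top) and of 5 basal-layer genes (bottom), 1 coloured point per array; the dashed line marks the filter value of 5.03. Krtdap, Cnfn, Krt10, Krt4 and Krt1 show a single KO metformin point far to the right of 3 clustered points, while Krt14, Krt15 and Trp63 lie left of the line on all 4 arrays.

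Promoters of several of these genes carry the letters TGANTCA, the core to which AP-1 factors bind in keratinocytes. The windows below are the stretches around the match in the 250 bases before the transcription start, given because these members hold the core and were raised on the KO metformin array; they are RefSeq sequences of GRCm38.p6, read 5′ to 3′ along the gene, with the match in capitals. The match begins 81 bases before the start in Krtdap (chr7:30787804-30787850, plus strand), 82 in Dmkn (chr7:30776303-30776349, plus strand), 116 in Sprr1a (chr3:92485971-92486017, minus strand), 96 in Rptn (chr3:93393583-93393629, plus strand) and 34 in Krt13 (chr11:100120585-100120631, minus strand).
Krtdap: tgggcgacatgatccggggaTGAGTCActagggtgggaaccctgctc
Dmkn: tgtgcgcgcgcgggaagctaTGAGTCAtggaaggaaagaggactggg
Sprr1a: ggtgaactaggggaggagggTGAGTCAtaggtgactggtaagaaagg
Rptn: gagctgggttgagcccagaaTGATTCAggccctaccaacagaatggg
Krt13: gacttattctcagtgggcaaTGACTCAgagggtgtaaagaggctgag
The core was searched on both strands, which for this palindrome is a single search. It was found in 11 of the 33 cornified-layer genes with a promoter in the table (33.3%), against 2113 of 27025 genes (7.82%). Members with the core were not all raised: involucrin (Ivl) read 3.69 and 3.80 in KO and Sprr1b 3.83 and 4.21. Nor did all raised members hold it: Krt10, Cnfn, Ly6g6c, Sprr3, Asprv1, Alox12b, Cdsn and Hrnr lacked the core in the bases searched. A match of letters is a description of the promoter, and binding was not measured.

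Beyond the squamous genes, few stood apart on the KO metformin array. It was at least 2-fold above each other array for 9 kept genes and at least 2-fold below each for 4. The 9 were Krtdap, Krt10, Krt13, Cnfn, Dmkn, Ly6g6c, Lypd5, Dmbt1 and 5730420D15Rik. Dmbt1, a mucosal scavenger protein that is also raised in metaplastic glands, read 5.59 and 5.75 in WT and 6.40 and 7.74 in KO. On the low side were the endothelial proteoglycan gene Esm1, at 6.09, 6.15 and 6.06 on the other arrays and 4.92 here, the muscle and fat carbonic anhydrase Car3, at 5.64, 5.86, 5.76 and 4.42, the DNA-binding gene Nabp1, at 7.93, 7.58, 7.53 and 6.52, and the small nucleolar RNA Snord72. Values seen on the treated KO array alone were thus 0.0812% of the kept genes upwards and 0.0361% downwards.

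The KO vehicle array stood apart far more often. It was at least 2-fold below each other array for 120 genes (1.08%) and at least 2-fold above each for 11. Of the 271 genes that rose with metformin in KO, 259 (95.6%) lay below both WT arrays with vehicle, against 51.7% of all kept genes. With metformin, 124 of the 271 lay between the WT values, 103 above both and 44 below both. Relative to the mean of the WT arrays, their median was -1.16 with vehicle and 0.10 with metformin. The 68 genes that fell were the mirror of this: 60 lay above both WT arrays with vehicle, and with metformin 32 lay between them, 30 below and 6 above. Since the vehicle array enters both the difference and the position, the low or high vehicle values are part of the selection and are not a separate result. No second KO vehicle array exists to compare with, and whether its values come from these animals, their tissue or this array was not tested.

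**Figure D3:**
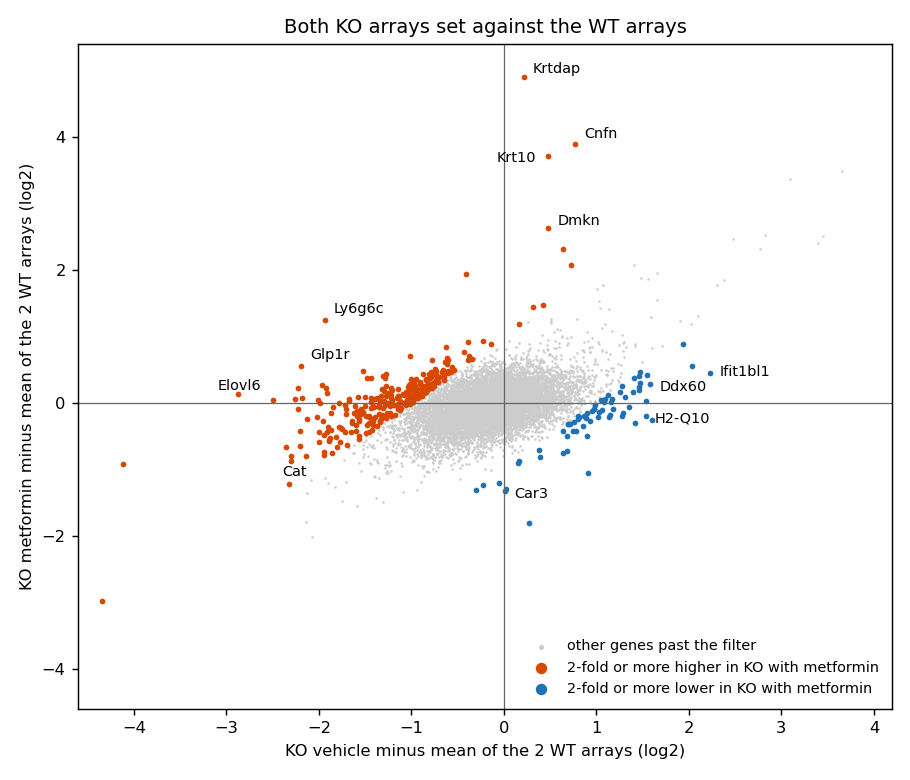
Each gene's value in KO corpus with vehicle (horizontal axis) and with metformin (vertical axis), both minus the mean of the 2 WT arrays on the log2 scale. Most genes that rose (orange) lie left of zero and near the horizontal line, and most that fell (blue) lie right of zero, while Krtdap, Cnfn, Krt10 and Dmkn rise along the vertical axis.

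Most leaders among the 271 belonged to the first kind, low with vehicle and near the WT values with metformin. Glp1r, the receptor for the incretin GLP-1, read 11.40 with vehicle and 10.28 with metformin in WT and 8.65 and 11.40 in KO, so the treated KO array matched the untreated WT array. Elovl6, which lengthens palmitate to stearate, read 8.46 and 8.15 in WT and 5.81 and 8.35 in KO. The galectin Lgals12, a lipid-droplet protein, read 10.76, 10.10, 8.20 and 10.65, and Trp53i11, induced by p53, read 10.66, 10.22, 8.18 and 10.49. In each case the KO vehicle value was more than 1.5 below every other value. The signalling adaptor Dapp1 read 5.97 and 8.23 in KO, the death-domain gene Dthd1 5.44 and 7.67, the ubiquinone methyltransferase Coq5 7.91 and 10.04, and the vesicle-sorting gene Vps33b 8.20 and 10.25. Mocs1, of molybdenum cofactor synthesis, read 6.31 and 8.37, Asb13, a ubiquitin ligase adaptor, 6.97 and 8.96, the kinase inhibitor Sike1 7.12 and 8.94, the atypical NF-κB inhibitor Bcl3 5.08 and 6.88, and the small GTPase Rhou 7.30 and 9.09. Rab2b (4.15 and 6.04) and the dehydrogenase Dhdh (4.83 and 6.62) had vehicle values under the filter value.

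Of the genes that fell, Ifit1bl1, H2-Q10, Oas2, Bst2 and Ddx60 are antiviral or antigen-presentation genes and are described with the interferon list, and Ndufa1, Fmc1, Atp5e and Cox7b serve the respiratory chain and ATP synthase. The others of the 20 lowest had assorted roles. The B cell chemokine Cxcl13 read 4.96 and 4.70 in WT and 5.84 and 4.61 in KO. The nucleosome-binding gene Hmgn5 read 6.24 and 4.97 in KO, the ubiquitin ligase Hecw1 5.71 and 4.31, the zinc finger gene Zfp607a 6.62 and 5.28, the centriole gene Cetn3 7.77 and 6.57, the folate-related gene Mthfsl 7.20 and 6.00 and Btbd35f1 6.28 and 5.19. The splicing subunit Snrpe fell by 1.11. Tlcd1, a regulator of membrane lipids, fell from 10.47 to 9.31, but its other probe set gave 0.61, so the 2 disagree in sign. In general 14 of the 68 genes that fell, and 35 of the 271 that rose, had a KO value under the filter value.

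Interferon-stimulated genes made up 6 of the 68 genes that fell. Of 31 kept members of 45 measured, 6 fell and none rose, against 0.613% and 2.44% of all kept genes, with a median of -0.41 in KO and 0.02 in WT. Of the 31 differences 26 were negative, against 38.2% over all kept genes. The highest value of the 4 was on the KO vehicle array for 29 of the 45, against 33.2% of all genes measured. Ifit1bl1, an antiviral protein of the IFIT family, read 5.61 and 6.10 in WT and 8.09 and 6.31 in KO, a fall of 1.78. Oas2, which makes the 2-5A signal that activates RNase L, read 5.26, 6.34, 7.08 and 5.60. Bst2, which tethers budding viruses to the cell, read 7.77, 8.22, 8.90 and 7.50, and the helicase Ddx60 read 5.05, 4.97, 6.59 and 5.30. In these 4 the KO vehicle array was the highest, and the KO metformin value was nearer to the WT vehicle value than the KO vehicle value was.

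Weaker members showed the same pattern. The ubiquitin-like modifier Isg15 read 4.07 and 4.86 in WT and 6.30 and 4.53 in KO, and the GTPase Mx2 read 4.70 and 3.27 in KO, both in part under the filter value. Oasl2 read 7.10 with vehicle and 6.06 with metformin in KO, and the nucleic acid sensor Zbp1 read 5.88 and 4.81. Ifit1 (-0.86), Gbp3 (-0.77), Irgm1 (-0.64), Xaf1 (-0.64) and Rtp4 (-0.62) had smaller differences. Among the factors that signal downstream of the interferon receptor or sense RNA, Stat2 was at -0.04, Irf9 at 0.19 and the kinase Eif2ak2 at 0.33, with Irf7 at -0.41. Oasl1 (0.45) and Ifit3, which read 4.68 and 5.44, were at the other end of the list.

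Promoters, those of the interferon list among them, were searched on both strands for the core of the interferon-stimulated response element. This core is GAAA, any 2 bases and GAAA again. The sequences are again RefSeq windows of GRCm38.p6 read along the gene, with the match nearest to the start in capitals (as its reverse complement in Ifit1bl1 and Ifit3); Isg15 and Bst2 hold further, overlapping matches in lower case. The last window is shown because Ifit3 holds the core and did not fall. Isg15 was not kept, so it is not counted among the genes that fell. The match in capitals begins 23 bases before the start of Ifit1bl1 (chr19:34599428-34599470, minus strand), 66 before Isg15 (chr4:156200855-156200904, minus strand), 124 before Bst2 (chr8:71537567-71537616, minus strand), 19 before Ddx60 (chr8:61928048-61928086, plus strand) and 122 before Ifit3 (chr19:34583387-34583436, plus strand).
Ifit1bl1: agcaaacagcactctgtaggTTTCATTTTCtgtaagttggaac
Isg15: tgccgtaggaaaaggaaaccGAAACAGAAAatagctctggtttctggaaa
Bst2: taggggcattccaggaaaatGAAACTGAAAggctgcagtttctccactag
Ddx60: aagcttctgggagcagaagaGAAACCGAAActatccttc
Ifit3: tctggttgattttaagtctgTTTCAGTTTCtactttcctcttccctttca
The core was present in 19 of the 36 list members with a promoter in the table (52.8%), against 936 of 27025 genes (3.46%). Oasl2 fell without the core in its window, and Stat2 (-0.04) holds it.

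Genes of class I antigen presentation lay beside the interferon genes. Of 17 kept, 1 fell and 1 rose, with a median of -0.34 in KO and 0.16 in WT, and 13 of the 20 measured were highest on the KO vehicle array. H2-Q10, a class I heavy chain, read 4.81 and 4.90 in WT and 6.39 and 4.66 in KO. The immunoproteasome subunits Psmb8 (6.65 and 5.85 in KO) and Psmb9 (5.63 and 5.10), the light chain B2m (11.96 and 11.33) and Psme2 (7.01 and 6.55) had negative differences of less than 2-fold. The exception was Mr1, which presents vitamin metabolites to innate-like T cells: it read 8.72 and 7.62 in WT and 5.97 and 7.75 in KO. Of the immune cell lists, macrophage and dendritic genes had a median of -0.21 over 11 kept, 5 positive and 6 negative. Over the 12 measured their median was -0.01. The 1 that fell was the lysozyme Lyz2 (8.97 and 7.97 in KO), which is also a neck cell gene. Plasma cell genes had a median of -0.24 over 7 kept, 3 positive and 4 negative, and of -0.12 over the 10 measured. Among the lower members were the heavy chain Ighm at 11.38 and 10.39 in KO, Jchain at 7.02 and 6.08 and the transporter Pigr at 6.93 and 6.10. None of the 7 B cell genes measured was kept. Whether fewer immune cells or less of each RNA per cell lies behind such values cannot be told apart in bulk tissue, and this holds for every cell type below.

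Genes of the respiratory chain were lower with metformin as a group and by small steps. Of 31 kept subunits of complex I, the enzyme that metformin inhibits, 26 differences were negative (38.2% over all kept genes) and 29 were under the median of 0.11, with a median of -0.32 in KO and 0.34 in WT. Ndufa1 read 8.40 and 8.90 in WT and 9.93 and 8.50 in KO, and Ndufa5 read 5.98, 6.58, 7.09 and 6.08. These were the only members that fell. Ndufa2 (8.85 and 7.92 in KO), Ndufb7 (8.52 and 7.83), Ndufb3 (-0.67) and Ndufb6 (-0.67) came next, and Ndufs8 (0.49), Ndufa12 (0.16) and Ndufa10 (0.10) were highest. On 21 of the 33 measured the KO vehicle array held the highest value.

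Complexes II to V had nearly the same median, -0.31 in KO and 0.34 in WT, with 37 of 39 under 0.11 and 2 that fell. Cox7b, a small subunit of cytochrome oxidase, read 9.11 and 10.16 in WT and 11.10 and 9.88 in KO, and Atp5e, the ε subunit of ATP synthase, read 7.36, 8.65, 9.46 and 8.20. Both depend on the probe set: the other probe set gave -0.09 for Cox7b and -0.69 for Atp5e. Fmc1, an assembly factor of ATP synthase, read 6.26 and 4.84 in KO. Outside the list, the copper chaperone Cox17 read 9.08 and 8.01 and the isoform Cox7a1 10.21 and 9.18, chosen after their values were seen. Of the 39 differences 6 were positive, and Atp5d (0.28) and Cyc1 (0.15) were highest. Uqcrc1 (-0.01) and Uqcrc2 (0.04) lay near zero. Subunits were not grouped by size or role.

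Ribosomal proteins had medians on the same side. Mitochondrial ribosomal proteins had a median of -0.19 over 66 genes, none past 2-fold, from Mrpl32 (-0.81), Mrpl36 (-0.77) and Mrps21 (-0.74) to Mrpl34 (0.66) and Mrpl49 (0.69). Cytosolic ribosomal proteins had a median of -0.24 over 48 genes, with 1 that fell, Rps29 (7.28 and 6.21 in KO), and with Rpl29 (0.96) and Rps27 (0.93) highest. In WT these 2 medians were 0.18 and 0.47. Enzymes of the citric acid cycle, which share the mitochondrial matrix, had a median of -0.01 over 16 genes, from Sucla2 (-0.83) and Pdhb (-0.57) to Dlst (0.46) and citrate synthase (Cs, 0.68). Mitochondrial solute carriers had a median of 0.20 over 35, and 2 of them rose: the aspartate-glutamate carrier Slc25a12 (7.91 and 9.39 in KO, 10.36 and 9.28 in WT) and the ATP-magnesium carrier Slc25a23 (7.92 and 9.27 in KO, 9.95 and 9.39 in WT). Lists of mitochondrial proteins thus differed in their sign.

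The respiratory chain and ribosome lists hold short genes, and gene length moved with the KO difference over all genes. Complex I genes had a median length of 8396 bases, complexes II to V 6751 and cytosolic ribosomal proteins 3249.5, against 23424 over all kept genes, 21976 over those that rose and 3210.5 over those that fell. Among protein-coding genes split by length into 10 groups of 1055, the median difference in KO ran from -0.03 in the shortest group to 0.19 in the longest, and in WT from 0.11 to -0.24. Small nucleolar RNA genes were lowest as a class, with a median of -0.56 in KO and 1.13 in WT over 59 genes, of which 19 fell. Their members Snord61 (9.08 and 7.12 in KO) and Snora30 (8.93 and 7.20) were among the lowest of all, and micro RNA genes had a median of -0.17 over 78. Some lists of short genes had positive medians. Neck cell genes had a median length of 7637 bases, integrated stress response genes 5499 and immediate early genes 3750, with median differences of 0.73, 0.32 and 0.31. With a filter at the 75th percentile these were 0.02, 0.07 and 0.31, against 0.16 over all genes kept by that filter. With the length trend removed from protein-coding genes, the medians of complex I (-0.32), complexes II to V (-0.30) and the interferon genes (-0.39) moved by less than 0.03. That of the class I presentation genes went from -0.34 to -0.22, and the ribosome lists were not checked in this way. The count of protein-coding genes that fell was then 28 in place of 40, and of those that rose 250 in place of 254. RNA quality of the samples was not stated, and its part in these differences was not tested.

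**Figure D4:**
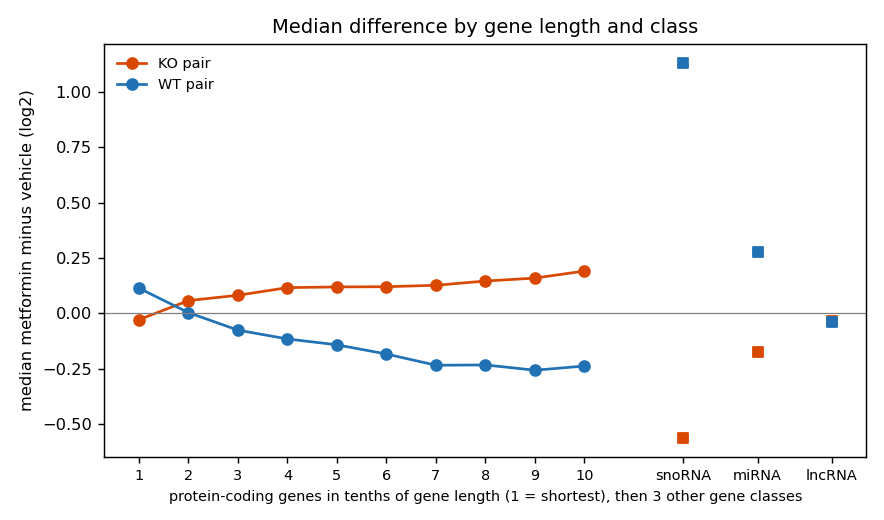
Median metformin minus vehicle difference (log2) in 10 groups of protein-coding genes ordered by gene length, 1055 genes in each, and in 3 classes of other RNA genes (squares). The KO medians (orange) climb from -0.03 to 0.19 with length while the WT medians (blue) run from 0.11 to -0.24, and small nucleolar RNA genes lie at -0.56 in KO and 1.13 in WT.

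Lipid synthesis was on the raised side. Fatty acid synthesis and elongation had a median of 0.46 in KO and -0.18 in WT over 17 genes. Of the 19 measured 14 were lowest on the KO vehicle array, against 44.3% of all kept genes and 29.5% of all genes measured. Beside Elovl6, the desaturase Scd1 rose, reading 7.12 and 6.40 in WT and 5.34 and 6.35 in KO. Positive differences of less than 2-fold were seen for the desaturases Fads2 (5.57 and 6.38 in KO) and Fads1 (6.20 and 6.99) and the elongase Elovl1 (7.87 and 8.57). The same held for Acacb, a carboxylase that AMPK phosphorylates (7.13 and 7.77), and Elovl2 (-0.66) and Thrsp (-0.14) were lowest. The rate-limiting carboxylase Acaca stood at 0.28 and fatty acid synthase (Fasn) at 0.46. Cholesterol synthesis had a median of 0.31 over 20 genes, of which only its regulator Srebf2 rose (7.57 and 8.59 in KO, 8.41 and 8.40 in WT). Lss (0.72), Scap (0.70) and Hsd17b7 (0.63) followed, and Pmvk (-0.12) and Ebp (-0.09) were lowest.

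Fuel burning and sugar metabolism showed less. Fatty acid oxidation had a median of 0.17 over 20 genes, with catalase (Cat), the peroxisomal enzyme that removes hydrogen peroxide, as the only one that rose: it read 12.65 and 11.44 in WT and 9.75 and 11.25 in KO. Cpt1a, the gate of mitochondrial fat import, stood at 0.69, Eci2 at 0.69 and Pdk4 at 0.60, and Acadm (-0.53) and Cpt2 (-0.45) were lowest. Glycolysis had a median of 0.24 over 15 genes and none past 2-fold, from Pgk1 (-0.62) and Pfkm (-0.32) to Gapdh and Slc2a1 (0.60 each). The gluconeogenic genes G6pc and Pck1, classical hepatic targets of metformin, were under the filter value on all 4 arrays. Coenzyme Q synthesis had a median of 0.19 over 12 genes, of which Coq5 alone rose. The next highest was Coq8b (0.65), and the lowest were Coq2 (-0.36) and Coq4 (-0.35).

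Among AMPK's own subunits and upstream kinases the median was 0.16 in KO and -0.34 in WT over 13 genes, with none past 2-fold. The highest were Prkaa1 (0.48), the LKB1 scaffold Cab39 (0.41) and Prkaa2 (0.33), and the lowest Prkag2 and Map3k7 (-0.04 each). LKB1 itself (Stk11) was at 0.18. In the mTORC1 pathway, which AMPK restrains, the median was 0.02 over 13 genes and the inhibitor Tsc2 rose (7.76 and 8.76 in KO). Deptor (0.99) and Rptor (0.87) were close to 2-fold, and Rraga (-0.57) and Eif4ebp1 (-0.43) were lowest. Of 5 carriers that move metformin across membranes, only the monoamine transporter Slc29a4 was kept, at 6.02 and 5.71 in KO. The Kruppel-like factors had a median of 0.35 over 13, with Klf10 as the one that rose (5.33 and 6.49), then Klf3 (0.83), Klf4 (0.75) and Klf12 (0.71), and with Klf11 (-0.28) and Klf13 (-0.25) lowest.

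Parietal cell genes differed by less than 2-fold between the KO arrays. The median over 25 was 0.21 in KO and -0.43 in WT. In KO 20 were positive (61.7% over all kept genes), and in WT 24 were negative (65.3%). Since 2.44% of all kept genes rose and 0.613% fell, a list of 25 is too short to show a lack of genes past 2-fold. The catalytic subunit of the proton pump, Atp4a, read 13.22 and 12.97 in WT and 12.80 and 12.94 in KO, and the β subunit Atp4b read 13.44, 13.25, 13.01 and 13.32. The exchanger Slc9a4 (9.36 and 10.29 in KO), the transcription factor Tfcp2l1 (7.10 and 8.01), the chloride channel Slc26a9 (10.67 and 11.54) and the channel Kcnj15 (8.38 and 9.20) came closest to a rise, and Slc26a7 and the muscarinic receptor Chrm3 (-0.26 each) were lowest. On 17 of the 25 the KO vehicle array held the lowest value, as it did for 44.3% of all kept genes and 29.5% of all genes measured. One member, Cblif, encodes intrinsic factor, which mouse chief cells make, and is in the chief cell list as well.

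The other gland cell types were mixed. Mucous neck cell genes had a median of 0.73 over 9, with 2 that rose and 1 that fell, but the median was 0.38 with no filter or with both KO arrays above the filter value, and 0.02 with a filter at the 75th percentile. The gland mucin Muc6 read 11.45 and 10.82 in WT and 10.41 and 11.62 in KO, and A4gnt, which adds the terminal sugar of that mucin, read 9.57, 8.54, 8.09 and 9.28. The hyaluronan receptor Cd44 (4.83 and 5.82 in KO), Gkn3 (8.03 and 8.99) and the water channel Aqp5 (5.90 and 6.63) lay below 2-fold, the trefoil peptide Tff2 stood at -0.19, and Lyz2 fell. Surface pit cell genes had a median of 0.35 over 14, 13 of them positive (61.7% over all kept genes) and none past 2-fold, led by Muc5ac (11.66 and 12.49 in KO), Capn8 (0.76), Foxq1 (0.65) and Capn9 (0.64), with Tspan8 (-0.29) and Tff1 (0.00) lowest. Chief cell genes had a median of -0.02 over 11, from Ctsl (-0.56) and Nucb2 (-0.39) to the cholecystokinin receptor Cckar (0.76).

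Metaplasia genes included 2 of 10 that rose, Dmbt1 and Sox9 (8.53 and 9.61 in KO, 9.43 and 8.83 in WT), and their median was 0.19. Progenitor genes of the isthmus, the zone from which gland cells are renewed, had a median of 0.30 over 10. Of these 9 were positive (61.7% over all kept genes) and none passed 2-fold. With a filter at the 75th percentile the progenitor median was 0.63, against 0.16 over all genes kept by that filter. Runx1 (0.69), Lgr4 (0.65), Lgr5 (0.63) and the proliferation marker Mki67 (0.63) were highest and Stmn1 (-0.75) was lowest. Cell cycle genes as a whole stood at a median of 0.11 over 20, the same as all genes. Endocrine genes had a median of 0.08 over 12, led by the secretogranin Scg3 (0.64), with ghrelin (Ghrl) at 12.08 and 12.22 in KO, somatostatin (Sst) at 11.82 and 11.64, chromogranin Chga at 10.23 and 10.72 and the histamine enzyme Hdc at 7.38 and 7.62. Progenitor and endocrine genes, the nearest to the purpose of the comparison, thus held no gene past 2-fold. Since 2.44% of all kept genes rose and 0.613% fell, lists of 10 and 12 genes are too short to show a lack.

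Muscle and vessel genes were low on the KO vehicle array. Smooth muscle genes had a median of 0.40 in KO and 0.12 in WT over 15, of which 14 were lowest on the KO vehicle array, against 44.3% of all kept genes. Desmin (Des), the muscle intermediate filament, read 10.02 and 10.43 in WT and 8.66 and 9.98 in KO, and calponin Cnn1 read 11.14, 11.32, 9.67 and 10.68. The smooth-muscle regulator Smtn (7.65 and 8.65), Actg2 (0.69) and Acta2 (0.54) followed, and Tagln stood at -0.07. Pacemaker cell genes, among them Ano1 (6.99 and 7.73) and Kit (7.14 and 7.62), were all 4 positive and all 4 lowest on the KO vehicle array (61.7% and 44.3% over all kept genes). Endothelial genes had a median of 0.19 over 12, with Plvap, of fenestrated vessels, as the one that rose (6.64 and 7.67), and among 7 kept enteric nerve genes the synaptic gene Snap25 rose (6.52 and 7.81). How much of the muscle wall each sample held was not stated.

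**Figure D5:**
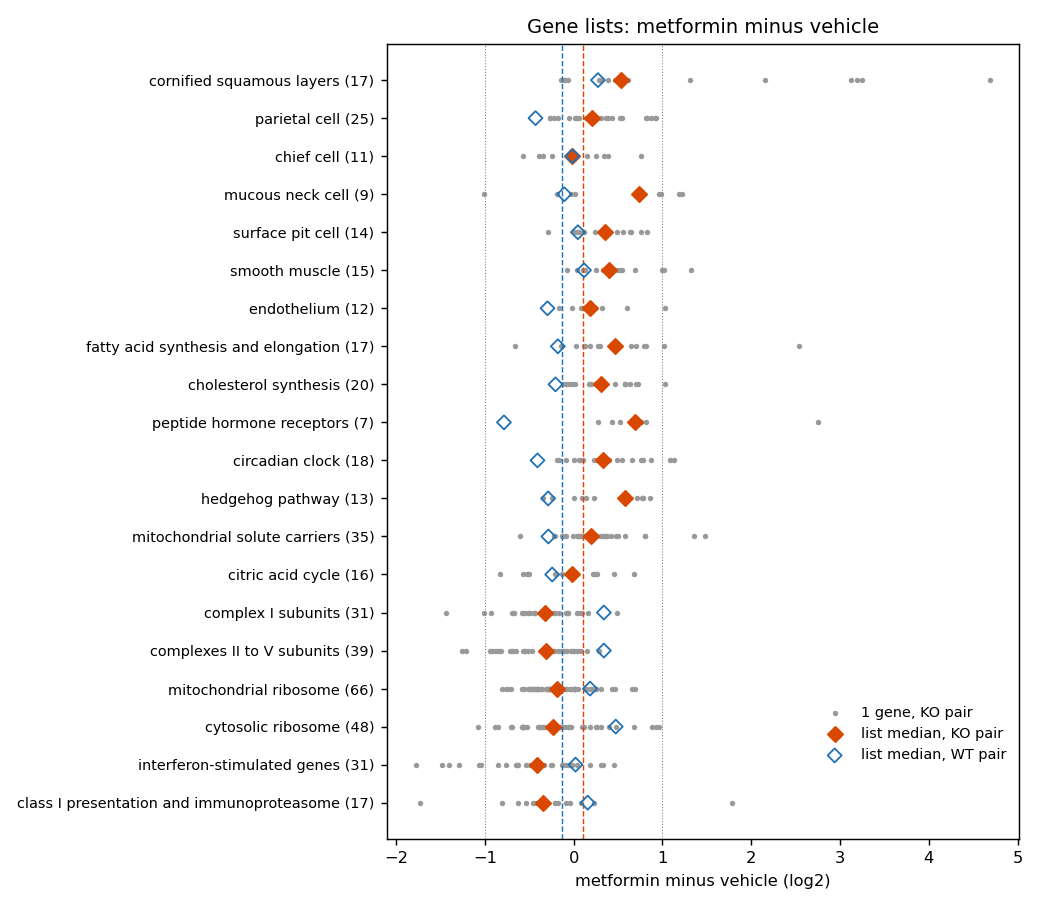
Metformin minus vehicle difference (log2) for each kept gene of 20 lists in the KO pair (grey), with the list median in KO (orange) and in WT (open blue); numbers in brackets are kept genes, and dashed lines are the medians over all genes. Orange medians of the respiratory chain, ribosome and interferon lists lie left of the line at 0.11 and those of the cornified, neck cell, peptide hormone receptor and hedgehog lists farthest to its right.

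Receptors and signalling genes were led by Glp1r. Of 23 peptide hormone receptors 7 were kept, and the KO vehicle array was the lowest for 7 of the 23, near the 29.5% over all genes measured. Glp1r was the one that rose, and the gastrin receptor Cckbr (5.43 and 6.25 in KO), Cckar (9.05 and 9.81) and the secretin receptor Sctr (7.72 and 8.41) had positive differences of less than 2-fold. The median was 0.70 in KO and -0.78 in WT, but over all 23 measured, most of them under the filter value, it was -0.05 in KO. Phosphodiesterases of cyclic AMP, the second messenger of most of these receptors, had a median of 0.15 over 9, with Pde7b as the one that rose (5.70 and 7.13 in KO, 8.62 and 7.39 in WT) and Pde8a next (0.81). The tachykinin receptor Tacr2, chosen after its values were seen, read 9.14 and 7.77 in WT and 6.74 and 8.37 in KO.

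The hedgehog pathway, through which parietal cells signal to the stroma, had a median of 0.58 in KO and -0.29 in WT over 13 genes, none past 2-fold. With both KO values required to reach the filter value, its KO median was 0.23. Its receptors Ptch1 (6.52 and 7.38 in KO) and Smo (7.08 and 7.87) and the effector Gli3 (5.13 and 5.91) were highest, the ligand Shh stood at 0.01, and Gli1, a standard readout of the pathway, was lowest (-0.34). EGF ligands and receptors had a median of 0.49 over 10, from Nrg1 (0.64) and Egfr (0.61) to Egf (-0.09) and Ereg (-0.52). Clock genes had a median of 0.33 in KO and -0.41 in WT over 18, and 2 rose, the output factor Dbp (7.95 and 6.74 in WT, 7.67 and 8.80 in KO) and the repressor Nr1d1 (10.28, 9.07, 8.70 and 9.78). Glucocorticoid-responsive genes, which include the clock gene Per1 (7.93 and 8.71), had a median of 0.43 over 16 with none past 2-fold, led by Cdkn1a (0.89) and Mt2 (0.82). The hour of tissue collection was not stated.

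The KO difference often had the opposite sign to the WT difference. Across the 11090 genes the 2 differences, which share no array, correlated at r = -0.40, a description with no test since genes are not replicates. Of the 271 genes that rose in KO, 244 had a negative difference in WT, against 65.3% of all genes, and of the 68 that fell 59 had a positive one, against 34.6%. Past 2-fold on both sides, 46 genes ran in opposite directions, 28 of them higher in KO and lower in WT, and none ran in the same direction. Catalase is an example: its WT difference was -1.21 and its KO difference 1.49. With 1 array in each group, whether the response differs between the genotypes was not tested.

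Among micro RNA genes, Mir145a and Mir200b had the largest differences. Mir145a, from a cluster active in smooth muscle, read 8.25 and 8.11 in WT and 4.06 and 7.27 in KO, and Mir200b, of the epithelial miR-200 family, read 6.94, 6.50, 3.84 and 6.85, so that both were under the filter value on the KO vehicle array alone. Mir92b read 5.58 and 6.03 in WT and 6.94 and 5.60 in KO, a fall of 1.34, and Mir139 read 5.72, 5.91, 6.85 and 5.68. For Mir200b, Mir92b and Mir139, 1 of the 2 mature forms in the table (RefSeq, GRCm38.p6) is given with the seed, bases 2 to 8, in capitals, and these 3 seeds differ.
miR-200b-3p: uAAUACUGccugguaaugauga
miR-92b-3p: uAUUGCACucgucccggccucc
miR-139-5p: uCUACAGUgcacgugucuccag
The array labels total RNA as cDNA, so a value at such a gene can come from the precursor or its host transcript, and mature micro RNA was not measured.

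For genes with several probe sets, those could be set against each other as a check within the arrays. Over 326 such genes the median range between probe sets was 0.40. Only 12 of the changed genes had several, and in 1 of these, the endocytic gene Sh3gl2 (1.02 and 1.15), every probe set passed 2-fold. In Smarcd1, a chromatin remodeller, the values were -1.03 and 0.02.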

How the data were processed

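Total RNA of gastric corpus was measured on 4 arrays, 1 for each genotype and treatment; per the labels' protocols, the WT Plus kit of Affymetrix turned it into cDNA carrying biotin. The log2 expression values were deposited by the authors and, per the submitters' processing notes, come from RMA, run in Partek, with no version or setting named. Precision is limited by there being 1 array in a group. Of 41345 probe sets, the platform annotation pairs 23521 with 1 gene and 1814 with several, and 16010 are unnamed here; symbols were updated through RefSeq (GRCm38.p6), where 23328 were found. The probe set with the highest mean stood for each of 22180 genes, and 11090 were kept, those whose mean reached the median (5.03). A gene was counted at a difference of 1 (2-fold). No test was possible with 1 array per group. Lists (30 of cell type markers, 39 of pathways) are described by counts and medians. The comparison, the members of the lists and the motifs were chosen with earlier results of these data known.

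Named genes are the 20 highest and 20 lowest, in each list described every member past 2-fold and as many as 4 at either end, squamous genes kept or raised on the KO metformin array, and both targeted genes; predicted genes, small RNA genes and receptor families of smell were counted only. Others were chosen after their values were seen, among them the micro RNA and small nucleolar RNA genes, the genes that stood apart on 1 array, and members near zero. Alternatives were 4 other filters, cyclic loess (limma 3.58.1 in R 4.3.3), centring on the median, the mean of probe sets, protein-coding genes alone, removal of the trend on gene length (lowess, span 0.3) and other size rules. Counting was tested on simulated data. The rest ran in Python (3.11.15) on pandas 2.3.3, numpy 2.4.6 and statsmodels 0.14.6.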

Additional observations from a re-analysis of the deposited data

Results flagged for a closer look

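A difference past 2-fold in opposite directions in the 2 genotypes was found for 13 of the named genes; with 1 array per group the difference between genotypes was not tested. Higher in KO and lower in WT were Glp1r (2.75 in KO, -1.13 in WT), Mocs1 (2.05, -1.03), Mr1 (1.78, -1.10), Cat (1.49, -1.21), Slc25a12 (1.48, -1.08), Pde7b (1.43, -1.23), A4gnt (1.19, -1.03), Dbp (1.13, -1.21) and Nr1d1 (1.09, -1.21). Lower in KO and higher in WT were Oas2 (-1.48, 1.08), Atp5e (-1.26, 1.29), Cox7b (-1.22, 1.06) and Tlcd1 (-1.16, 1.18).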

How the results depend on the processing

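No group has a second array, so no replicate could be left out, and nothing here measures the spread between animals. No paired analysis was possible because each group has 1 array and the labels carry no replicate numbers. The count of genes that rose (271) was 1380 at 1.5-fold and 41 at 3-fold, and between 191 and 353 under the other 9 alternatives run. The count that fell (68) was 412 at 1.5-fold, 6 at 3-fold, 218 with no filter, 30 with a filter at the 75th percentile, 40 with arrays centred on their median and 40 among protein-coding genes alone; with the length trend also removed from those genes it was 28. After cyclic loess 94 fell, 66 of them shared with the deposited scaling. The 9 genes raised on the KO metformin array alone became 37 with no filter, 16 with the filter on the KO mean, 5 with both KO arrays above the filter value and 1 at the 75th percentile. Of 27 list medians checked, 2 changed sign: peptide hormone receptors (0.70) to -0.051 with no filter, and complement genes (-0.27) to 0.42 at the 75th percentile. The neck cell median (0.73) was 0.38 with no filter and 0.02 at the 75th percentile, that of the hedgehog genes (0.58) was 0.23 with both KO arrays above the filter value, and that of the interferon genes (-0.41) was -0.14 at the 75th percentile. Of 40 genes checked none changed sign, and with the mean of probe sets Atp5e was at -0.97, Cox7b at -0.65 and Tlcd1 at -0.28. The cause of these moves was not tested.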

Other observations

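Solute carriers and growth factors of the BMP family held many of the genes that rose in KO, and both groups were chosen after their values were seen. Of 197 kept genes named Slc, 18 rose (9.14%, against 2.44% of all genes) and none fell, with a median of 0.26. They included the sodium-proton exchanger Slc9b2 (6.03 with vehicle and 7.73 with metformin in KO), the amino acid transporter Slc7a8 (9.49 and 11.06), the copper transporter Slc31a2 (7.40 and 8.86), the iodide transporter Slc5a5 (8.07 and 9.44) and the creatine transporter Slc6a8 (7.71 and 9.01). The prostaglandin transporter Slco2a1, named under another stem, read 9.56 and 11.15. Of 11 BMP ligands and receptors 4 rose, with a median of 0.74 in KO and -0.36 in WT. Bmp4, a stromal ligand, read 8.91 and 7.90 in WT and 6.95 and 8.11 in KO, Bmp7 read 8.37, 7.65, 6.29 and 7.57, Bmp3 read 7.27, 6.52, 5.37 and 6.75, and the receptor Bmpr2 read 9.82 and 11.07 in KO.

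Some sugar transferases, grouped by the stem of their names alone, rose. Of 17 genes named B3gnt, B4gal or Fut 3 rose (17.6%, against 2.44% of all genes), with a median of 0.56. These were B4galnt2, Fut11 and B4galt3 (5.99 and 7.07 in KO). The wider list of mucin glycosyltransferases lay nearer to all genes, with a median of 0.17 over 22 kept, of which 2 rose. Over all 27 measured its median was 0.08. B4galnt2, which makes the Sda antigen, read 10.44 and 9.50 in WT and 7.64 and 8.75 in KO. Fut11 read 6.34, 7.21, 6.00 and 7.43, but its rise depends on the probe set. Its probe sets ran from 0.18 to 1.43 in KO. Zinc finger genes named Zfp, a large group by contrast, had 4 of 217 that rose and 1 that fell, with a median of 0.08. Markers of neighbouring organs did not move as groups: of 4 kept pancreas genes the lipase Cel rose (6.05 and 7.23 in KO), and none of 4 kept liver genes or 4 kept intestine and antrum genes passed 2-fold. By chromosome, the share of kept genes past 2-fold in KO ran from 1.53% on chromosome 12 to 4.23% on the X.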
